A study of Mus musculus with 8 samples.

Results

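Liver RNA from mice that met fine particulate air pollution alone was compared directly with liver RNA from mice that met constant light alone. The first group, LD-PM2.5, breathed PM2.5 (airborne particles small enough to reach the deep lung) under a light/dark cycle (LD). The second group, LL-FA, was kept in constant light (LL) and breathed filtered air (FA). Each group had 2 libraries, so the comparison used 4 of the 8 libraries of the series. The other 4 libraries came from unexposed mice (LD-FA) and from mice with both exposures (LL-PM2.5), and they entered the fit and are given beside the results. All animals were wild type C57BL/6 mice, and all groups had been held in their conditions for 30 weeks. The labels give neither the sex and age of the animals nor the time of day at which livers were taken, and they name no batch or date. Genes were included when the deposited table gave a valid estimate in every library and at least 1 FPKM (a fragment count scaled to gene length and library depth) in at least 2 of the 8 libraries, which left 11316 of 48432 listed genes.

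The liver answers inflammatory signals from elsewhere in the body by secreting acute phase proteins, and its own cells make chemokines such as Cxcl1 when the transcription factor NF-kB is active. It also carries a daily clock, a feedback loop of transcription factors that is normally set by light and by feeding and that times the synthesis of cholesterol, bile acids and glucose. Constant light removes the light cue that sets this clock, whereas inhaled particles act first on the lung, so the contrast sets a disturbance of timing beside an airborne exposure. Heat shock chaperones and the chaperones of the endoplasmic reticulum are further stress programs, each with its own transcription factors.

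The 4 libraries compared held 28025896 and 22214720 fragments for LD-PM2.5 and 25950205 and 22719024 for LL-FA. Across genes, which are not independent replicates, replicates correlated at 0.98 within LD-PM2.5 and 0.959 within LL-FA. Hepatocyte markers dominated every library, and the 6 of 10 that could be tested summed to between 29980 and 41120 FPKM. Skeletal muscle transcripts set LL-FA replicate 1 apart, with 670.4 FPKM over 10 markers against 0.76 in LL-FA replicate 2 and 0.58 and 1.12 in LD-PM2.5. Pancreatic enzyme transcripts summed to 135 FPKM in LD-PM2.5 replicate 1 and to between 18.1 and 27.7 in the other 3 libraries. Most of the latter was Cela1, at 22.7 FPKM in LD-PM2.5 replicate 2 and at 17.5 and 26.9 FPKM in LL-FA. Cela2a measured 22.3 and 1.5 FPKM in LD-PM2.5 and 0.101 and 0.359 FPKM in LL-FA. The unexposed group was also uneven, since LD-FA replicate 1 held 333.1 FPKM of muscle and 3877 FPKM of pancreatic transcripts and LD-FA replicate 2 held 38.2 and 34.8 FPKM. Of the LL-PM2.5 libraries, replicate 2 held 379.6 FPKM of pancreatic transcripts. The labels do not state whether both libraries of a group are from different animals. The p-values therefore measure the spread between these samples, which may be technical. With 2 samples against 2, an exact permutation test of a single gene cannot give a two-sided p below 0.333.

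No gene passed the adjusted threshold of 0.05 (edgeR quasi-likelihood test, Benjamini-Hochberg over 11316 genes, smallest adjusted p 0.203). At an unadjusted p under 0.05 the same test listed 1031 genes, 9.11% of those tested, where 566 would be listed if no gene differed. Of these, 614 (5.43%) were higher and 417 (3.69%) lower in LD-PM2.5. The excess over 566 depended on the test. With limma on log2 FPKM, the genes listed numbered 536 (4.74%) at a pseudocount of 1 and 543 (4.8%) at 0.1. Both are below 566. DESeq2, run as an alternative, called 137 genes at an adjusted p under 0.05, 107 of them (0.984% of 10877 with an adjusted p) higher and 30 (0.276%) lower in LD-PM2.5. Of these 30, 7 were skeletal muscle markers and 1 an adipocyte marker. Below, genes with an unadjusted edgeR p under 0.05 are said to be past the unadjusted threshold, and counts in gene lists are to be read against the 5.43% and 3.69% of all tested genes. These shares hold for the fit of all libraries. Where a library was left out, the number of genes past the threshold changed over all genes too. A changed list count may then not be particular to the list. Fold changes are LD-PM2.5 over LL-FA on the log2 scale with their standard error (SE), and none of those given passed the adjusted edgeR threshold. The median log2 fold change over all tested genes was -0.01. The gene lists used below were chosen with earlier results of these data known. Their shares therefore describe the lists and are not an independent test.

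The gene with the smallest p was Rgs16, a regulator of G protein signalling whose liver transcript follows a daily rhythm (chr1:153740349-153745468, GRCm38/mm10). Its level was 1.64 and 2.17 FPKM in LD-PM2.5 and 0.088 and 0.12 FPKM in LL-FA. It stood 4.17 ± 0.43 higher on the log2 scale, 18-fold (edgeR adjusted p 0.203). The unexposed livers lay in between at 0.35 and 0.293 FPKM, and the livers with both exposures reached 3.3 and 1.61 FPKM. Both groups that breathed PM2.5 were therefore above both groups that breathed filtered air.

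Among the genes of smallest p with no overlap between groups and a mean level of 5 FPKM or more in one of them, the 10 that were higher in LD-PM2.5 are described first. Non-overlap alone was common, since 18.4% of all tested genes lay above and 13.3% below in this sense, 31.7% in all. Mtss1, a regulator of the actin cytoskeleton at the membrane (chr15:58941234-59082005), measured 35.4 and 41.8 FPKM against 15.2 and 14.4 FPKM, a difference of 1.36 ± 0.16. The livers with both exposures were close to the PM2.5 level (30.3 and 29.7 FPKM), and the unexposed livers were close to the LL-FA level (13.1 and 14.4 FPKM). Pawr, a pro-apoptotic protein, measured 7.25 and 6.83 FPKM against 3.45 and 3.74 FPKM (0.97 ± 0.13). Prg4, which encodes the lubricating protein lubricin, divided the libraries the other way. It measured 15.9 and 10.9 FPKM in LD-PM2.5 and 17.1 and 11.5 FPKM in the unexposed livers, but 6.56 and 4.94 FPKM in LL-FA and 7.49 and 6.31 FPKM with both exposures. Prg4 was thus low wherever light was constant, and its difference between LD-PM2.5 and LL-FA was 1.28 ± 0.18. Dusp6, a phosphatase that switches off ERK, measured 22.3 and 21.3 FPKM against 10.2 and 5.99 FPKM (1.40 ± 0.22). Akap13, a scaffold protein for protein kinase A, measured 5.68 and 7.22 FPKM against 2.87 and 2.2 FPKM (1.34 ± 0.23), with both remaining groups near LL-FA. The remaining 5 of these 10, Cxcl1, Hspa1b, Herpud1, Csf1 and Icam1, are described below with the stress and immune genes to which they belong. The 10 had adjusted p-values of 0.246 to 0.306 in the edgeR test.

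Of the 10 leading genes that were lower in LD-PM2.5, Cyp26a1 differed the most. It encodes the cytochrome P450 that breaks down retinoic acid (chr19:37697798-37701536) and measured 7.05 and 11.6 FPKM in LD-PM2.5 against 36.6 and 36.4 FPKM in LL-FA, a difference of -2.0 ± 0.32. The unexposed livers were as low as LD-PM2.5, at 7.53 and 9.08 FPKM, and the livers with both exposures measured 40.0 and 20.6 FPKM. Fam89a measured 4.95 and 4.51 FPKM against 12.1 and 10.6 FPKM (-1.31 ± 0.18), with the unexposed livers near LL-FA and those with both exposures, at 6.79 and 6.20 FPKM, near LD-PM2.5. Several of the 10 are metabolic enzymes. Csad makes hypotaurine, the precursor of taurine, from cysteine sulfinic acid, and it measured 136 and 135 FPKM against 214 and 293 FPKM (-0.93 ± 0.18). Fpgs, which adds glutamates to folate and so retains it in the cell, measured 44.8 and 51.6 FPKM against 68.2 and 79.7 FPKM (-0.66 ± 0.12). Kyat1, a kynurenine aminotransferase, measured 27.9 and 30.4 FPKM against 42.5 and 47.4 FPKM (-0.67 ± 0.12). The remaining 5 were Eepd1 (-0.90 ± 0.17), the Toll-like receptor gene Tlr12 (-1.16 ± 0.25), Agfg2 (-0.67 ± 0.15), the peroxisome assembly gene Pex16 (-0.67 ± 0.16) and the retinal reductase Dhrs3 (-0.46 ± 0.11). Their edgeR adjusted p-values were 0.246 to 0.477.

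**Figure D1:**
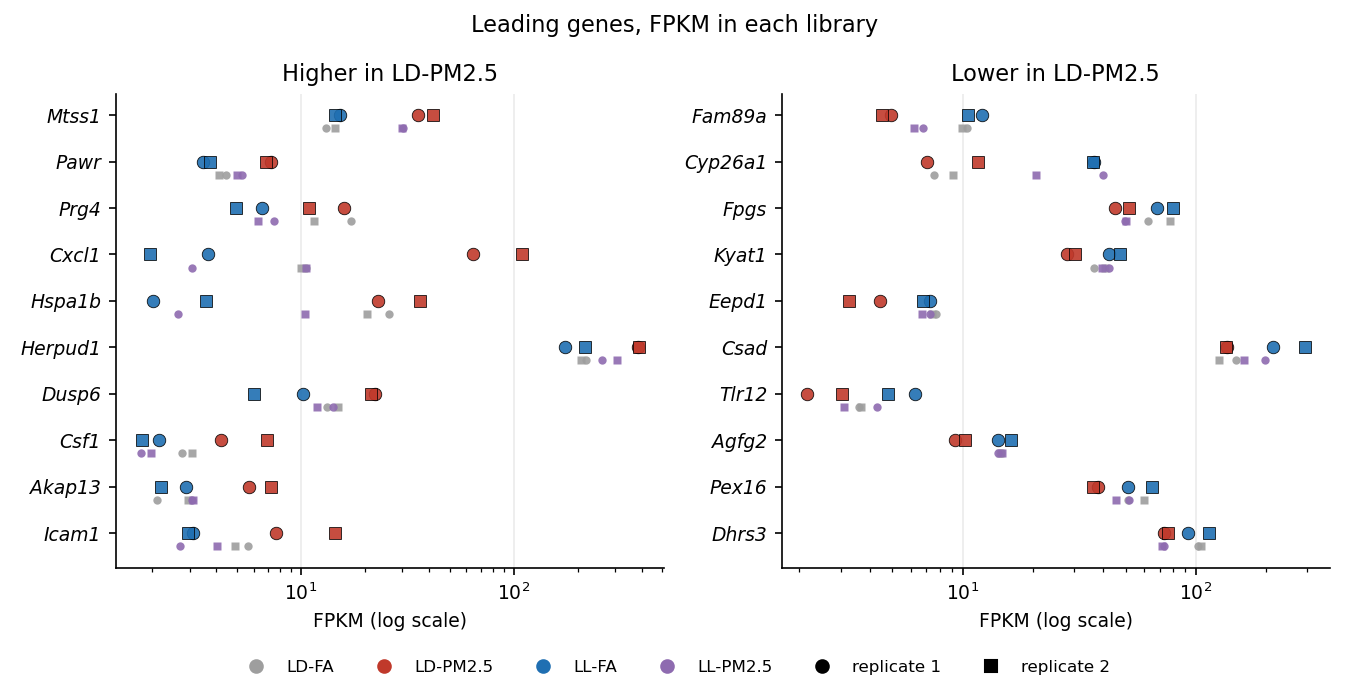
Levels of the 20 leading genes in each library, in FPKM on a log axis, for genes higher (left) and lower (right) in LD-PM2.5 than in LL-FA. Large outlined symbols are the 2 groups compared and small symbols the other 2 groups, with circles for replicate 1 and squares for replicate 2. The red and blue symbols do not overlap for any of the 20 genes, which the choice of genes required, and Cxcl1 has the widest gap, 64.1 and 109 FPKM against 3.66 and 1.94 FPKM.

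The genes that stood out as a group were those of cytokine and NF-kB signalling. Of 15 tested members, 13 were past the unadjusted threshold, all higher in LD-PM2.5, and 0 were lower, against 5.43% and 3.69% of all genes. Their median difference was 1.52, against -0.01 over all genes. Il6, Tnf and Cxcl2, also on the list, were too low to be tested. In bulk liver RNA a difference of this kind can reflect the number of cells that express a gene or the RNA in each cell, and these cannot be told apart.

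The widest gap was that of Cxcl1, a chemokine that attracts neutrophils (chr5:90891241-90893115). It measured 64.1 and 109 FPKM in LD-PM2.5 and 3.66 and 1.94 FPKM in LL-FA, a difference of 4.97 ± 0.71 or 31.2-fold (edgeR adjusted p 0.246). The unexposed livers, at 10.6 and 10 FPKM, lay between both groups, and the livers with both exposures had 3.08 and 10.6 FPKM. Ccl2, a chemokine for monocytes, measured 7.10 and 4.93 FPKM against 0.428 and 0.754 FPKM (3.27 ± 0.62). Cxcl10, a chemokine for T cells, measured 4.62 and 6.51 FPKM against 1.37 and 1.74 FPKM (1.81 ± 0.52). All 3 chemokines were higher in each LD-PM2.5 library than in each LL-FA library. Icam1, the adhesion molecule that holds leukocytes on endothelium, measured 7.64 and 14.5 FPKM against 3.09 and 2.94 FPKM (1.84 ± 0.32). Csf1, the growth factor of macrophages, was not on the list but was among the leading genes, at 4.21 and 6.95 FPKM against 2.16 and 1.79 FPKM (1.47 ± 0.25).

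Genes that restrain or modulate NF-kB stood on the same side as the chemokines. Nfkbiz, a nuclear member of the inhibitor family that switches on secondary response genes, measured 3.80 and 4.02 FPKM against 1.58 and 1.11 FPKM (1.52 ± 0.20). Tnfaip3, a ubiquitin-editing enzyme that terminates the signal, measured 1.08 and 2.04 FPKM against 0.409 and 0.303 FPKM (2.11 ± 0.63). The differences were smaller for Nfkbia, the classical inhibitor (0.59 ± 0.19), and for Bcl3, another nuclear inhibitor family member (1.07 ± 0.33). Il1b, the inflammatory cytokine interleukin 1 beta, measured 2.32 and 2.39 FPKM against 0.868 and 0.634 FPKM (1.65 ± 0.32). For Il1b the unexposed livers were at least as high as LD-PM2.5, at 4.36 and 2.36 FPKM. Genes of the interleukin 6 and STAT3 pathway were on the same side: Stat3 itself (0.57 ± 0.12), the kinases Pim1 (0.69 ± 0.16) and Pim3 (0.72 ± 0.20), and the feedback inhibitor Socs3 (2.33 ± 0.78). Socs3 varied between replicates, with 10.4 and 23.9 FPKM in LD-PM2.5 and 0.817 and 6.16 FPKM in LL-FA. The 2 members not past the threshold were Il1rn (-0.23 ± 0.63) and Socs2 (-0.10 ± 0.98). Members beyond the 4 of smallest p are named here, and in the next 3 lists, because their list stood apart, a choice made after the values were seen.

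The promoters of Cxcl1 and Csf1 are shown because both genes led the comparison and both hold the letters of an NF-kB binding motif. They are the 250 bases upstream of the gene start from RefSeq on GRCm38.p6, written 5′ to 3′ on the strand of the gene, with matches on either strand in capitals. The motif searched was GGG, any 2 bases, TT, any base and CC. The Cxcl1 window is chr5:90890995-90891244, plus strand, and the Csf1 window is chr3:107760470-107760719, minus strand.
Cxcl1: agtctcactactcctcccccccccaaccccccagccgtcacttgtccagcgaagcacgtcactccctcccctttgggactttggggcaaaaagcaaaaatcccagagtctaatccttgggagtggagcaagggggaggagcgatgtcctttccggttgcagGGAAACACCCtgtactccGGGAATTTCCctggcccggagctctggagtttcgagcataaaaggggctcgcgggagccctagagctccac
Csf1: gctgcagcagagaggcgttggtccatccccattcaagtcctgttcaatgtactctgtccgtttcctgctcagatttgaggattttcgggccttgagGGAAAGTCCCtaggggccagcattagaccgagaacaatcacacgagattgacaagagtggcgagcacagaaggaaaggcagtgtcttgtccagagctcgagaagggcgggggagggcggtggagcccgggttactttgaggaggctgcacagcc
Cxcl1 holds 2 matches, 79 and 61 bases before the gene start, and Csf1 holds 1 match, 144 bases before it. The motif was found in 5 of the 12 tested cytokine list members with a RefSeq promoter (41.7%). It was found in 5.47% of all tested genes with such a promoter and in 4.11% of 32851 promoter windows. In 1 window it overlapped the endoplasmic reticulum stress element described below. The 5 list members were Cxcl1, Cxcl10, Nfkbia, Tnfaip3 and Il1rn, and Il1rn did not stand apart between the groups. A match is a description of letters, and nothing in these data shows binding. The lists were drawn up by function, with earlier results of these data known. A share of matches above that of all genes, here and below, therefore says nothing about the exposures.

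Neutrophil and macrophage markers are given beside the chemokines because these cells both make and follow them. Of 9 neutrophil markers, 6 were below 1 FPKM in all 4 libraries compared. The 9 summed to 7.47 and 14.3 FPKM in LD-PM2.5 and to 6.18 and 4.24 FPKM in LL-FA. S100a9, a calcium-binding protein abundant in neutrophils, was past the unadjusted threshold at 3.07 and 6.41 FPKM against 2.36 and 1.72 FPKM (1.27 ± 0.44). Of 11 Kupffer cell and macrophage markers, 0 were past the threshold, with a median difference of 0.19 and sums of 393.3 and 339.4 FPKM against 264.2 and 397.4 FPKM. The part of these cells in the cytokine result was not tested. Leaving out LD-PM2.5 replicate 2 lowered the median difference of the cytokine genes to 1.33.

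**Figure D2:**
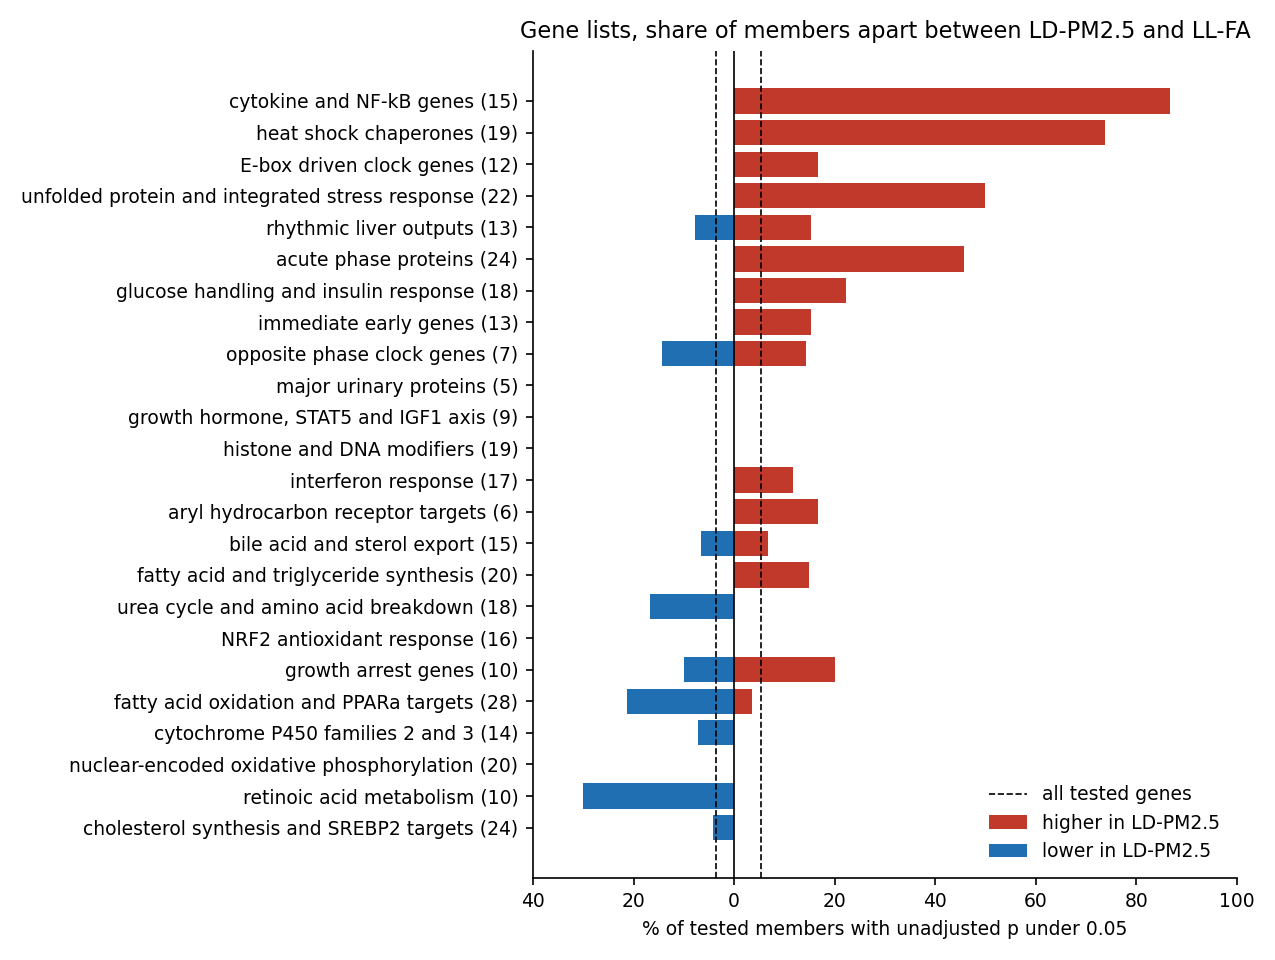
Share of the tested members of each of 24 pathway lists that were past the unadjusted threshold, in percent, higher in LD-PM2.5 to the right and lower to the left, with the number tested in brackets and lists ordered by median log2 fold change. Dashed lines mark all tested genes (5.43% and 3.69%). Cytokine and NF-kB genes (86.7%), heat shock chaperones (73.7%), the unfolded protein response (50%) and acute phase proteins (45.8%) reach furthest to the right.

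Heat shock chaperones, which refold damaged proteins in the cytosol, formed the next group. Of 19 tested members, 14 were past the unadjusted threshold, all higher in LD-PM2.5, and the median difference was 1.05. Hspa1b, the strongly inducible form of HSP70 (chr17:34956436-34959238), measured 23.0 and 36.3 FPKM against 2.02 and 3.57 FPKM, a difference of 3.38 ± 0.52 or 10.4-fold (edgeR adjusted p 0.306). Hspa1b was also high in the unexposed livers, at 25.8 and 20.5 FPKM, and low with both exposures, at 2.64 and 10.4 FPKM. It was thus lowest where light was constant. Its near-identical neighbour Hspa1a measured 0.808 and 1.90 FPKM against 0.21 and 0.187 FPKM (2.61 ± 0.48), and the division of reads between these copies is uncertain. Dnajb1, a cochaperone of HSP70, and Bag3, which hands clients to autophagy, were likewise lower in both constant light groups than in both light/dark groups, and differed by 1.05 ± 0.19 and 1.17 ± 0.21.

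Other chaperones were highest in LD-PM2.5 itself. Hsph1, a nucleotide exchange factor for HSP70, measured 46.2 and 56.2 FPKM against 11.3 and 11.2 FPKM (2.19 ± 0.45), and the unexposed livers lay between at 25.5 and 20.6 FPKM. Hspa8, the constitutive HSP70, measured 539 and 748 FPKM against 244 and 211 FPKM (1.45 ± 0.33). For Hspa8 the unexposed livers, at 284 and 286 FPKM, were close to LL-FA. The inducible HSP90 gene Hsp90aa1 measured 50.5 and 61.7 FPKM against 22.7 and 21.8 FPKM (1.37 ± 0.34), and the constitutive Hsp90ab1 differed by 0.85 ± 0.25. Hspa4l (1.34 ± 0.32), Chordc1 (1.06 ± 0.28), Dnaja1 (0.96 ± 0.19), Stip1 (0.81 ± 0.23), Cacybp (0.63 ± 0.21) and the small heat shock protein Hspb1 (1.79 ± 0.69) completed the 14. Hspb1 was uneven, with 119 FPKM in LD-PM2.5 replicate 2 against 23.1 FPKM in replicate 1, which overlapped LL-FA at 10.7 and 30.7 FPKM. The mitochondrial chaperones Hspd1 (0.16 ± 0.17) and Hspe1 (0.13 ± 0.28) did not pass the threshold. Cryab, a small heat shock protein that muscle also expresses, was at 17.0 FPKM in the LL-FA library with muscle transcripts and at 2.57 to 3.01 FPKM in the other 3 libraries compared. Cirbp, an RNA-binding protein that cold raises and heat lowers, was noticed after the values were seen and stood on the opposite side, at 5.30 and 4.01 FPKM against 9.17 and 8.38 FPKM (-1.01 ± 0.28). Leaving out LD-PM2.5 replicate 2 reduced the 14 to 10, and leaving out LL-FA replicate 1 reduced them to 11.

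The Hspa1b promoter is shown for the pair of inverted GAA units that heat shock factors recognise, GAANNTTC, in capitals. The window is chr17:34959239-34959488, minus strand, on GRCm38.p6 from RefSeq, and its match ends 96 bases before the gene start.
Hspa1b: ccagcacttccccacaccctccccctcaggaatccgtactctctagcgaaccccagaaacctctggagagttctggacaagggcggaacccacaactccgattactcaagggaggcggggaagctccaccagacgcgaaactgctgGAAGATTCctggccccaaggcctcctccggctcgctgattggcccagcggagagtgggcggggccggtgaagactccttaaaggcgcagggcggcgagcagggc
This motif reads the same on both strands and occurred in 7 of the 15 tested chaperone genes with a RefSeq promoter (46.7%). It occurred in 6.18% of all tested genes with such a promoter and in 6.69% of the windows searched. The 7 included Hspa1a, Hspb1 and Dnaja1, but also Hspd1, Hspe1 and Fkbp4, which were not past the threshold.

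Chaperones and enzymes of the endoplasmic reticulum, which the unfolded protein response controls, were on the same side. Of 22 tested genes, 11 were past the unadjusted threshold, all higher in LD-PM2.5, and the median difference was 0.80. Herpud1, which helps to degrade misfolded proteins of the endoplasmic reticulum, measured 385 and 387 FPKM against 175 and 217 FPKM (0.95 ± 0.15). The unexposed livers were near LL-FA for Herpud1, at 218 and 207 FPKM. Hspa5, the main chaperone of this compartment, measured 890 and 468 FPKM against 291 and 244 FPKM (1.32 ± 0.43). For Hspa5 the unexposed livers, at 575 and 349 FPKM, overlapped LD-PM2.5. Creld2, a small secreted stress protein, measured 124 and 58.4 FPKM against 16.8 and 22.6 FPKM (2.24 ± 0.69). For Creld2 the unexposed livers lay between, at 47.3 and 28.1 FPKM. LD-PM2.5 replicate 1 exceeded replicate 2 for both of these genes. The same order held for Hyou1 (1.49 ± 0.44), Manf (1.23 ± 0.50), Dnajb9 (1.17 ± 0.42), Pdia4 (0.94 ± 0.34) and Dnajc3 (0.65 ± 0.17). In LD-PM2.5, LD-FA and LL-PM2.5, Hspa5 and Creld2 were higher in the replicate with more pancreatic transcripts. In LL-FA the sums of pancreatic transcripts, 18.1 and 27.4 FPKM, were mostly Cela1, at 17.5 and 26.9 FPKM. The other pancreatic markers there were at 0.359 FPKM or less, so LL-FA gave no clear order to compare. The part of pancreatic transcripts in these differences was not tested. The integrated stress response genes Atf3 (1.68 ± 0.49), Ddit3 (1.16 ± 0.34) and Sesn2 (0.77 ± 0.20) were past the threshold, while Atf4, which drives them, was at -0.35 ± 0.19. Without LD-PM2.5 replicate 1 the median of the list was 0.44. Without LL-FA replicate 2 it was 0.85, and without LL-FA replicate 1 it was 0.73.

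The Creld2 promoter is shown because it holds the endoplasmic reticulum stress element, CCAAT and CCACG separated by any 9 bases. This element occurred in 0.113% of the windows searched. The window is chr15:88819396-88819645, plus strand, on GRCm38.p6 from RefSeq. The element lies on the opposite strand, so the capitals show its reverse complement, and it ends 107 bases before the gene start.
Creld2: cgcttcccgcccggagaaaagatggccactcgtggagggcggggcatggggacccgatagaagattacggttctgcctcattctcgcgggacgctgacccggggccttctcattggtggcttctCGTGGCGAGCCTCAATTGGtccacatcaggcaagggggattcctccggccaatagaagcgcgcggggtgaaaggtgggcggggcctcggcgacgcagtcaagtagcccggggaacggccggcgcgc
The element was present in 6 of the 20 tested list members with a RefSeq promoter (30%). These were Hspa5, Hsp90b1, Pdia6, Dnajc3, Creld2 and Calr, of which Hspa5, Dnajc3 and Creld2 were past the threshold. Among all tested genes with a RefSeq promoter the share was 0.181%.

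Acute phase proteins, which hepatocytes secrete into plasma during inflammation, were higher in LD-PM2.5 for 11 of 24 tested genes and lower for 0, and all 24 differences were positive, against 49.1% of all tested genes, with a median of 0.56. Serum amyloid A gave the largest differences. Saa1 (chr7:46740497-46742980) measured 2130 and 303 FPKM in LD-PM2.5 and 39.9 and 43.7 FPKM in LL-FA, a difference of 4.85 ± 0.94 or 28.8-fold (edgeR adjusted p 0.324). Saa2 measured 1530 and 162 FPKM against 20.3 and 16.6 FPKM (5.52 ± 1.18). The groups did not overlap, although the LD-PM2.5 replicates were far apart. Saa1 and Saa2 are near-identical copies, so the share of reads given to each is uncertain. The unexposed livers were as high as LD-PM2.5, with 2850 and 1280 FPKM of Saa1, and the livers with both exposures had 30.9 and 68.5 FPKM. Lcn2, an iron-sequestering defence protein, measured 58.3 and 9.53 FPKM against 3.10 and 1.63 FPKM (3.80 ± 0.89). Orm2, an orosomucoid, measured 67.7 and 32.1 FPKM against 13.5 and 13 FPKM (1.91 ± 0.44). Haptoglobin (Hp) measured 2990 and 3280 FPKM against 1390 and 1970 FPKM (0.91 ± 0.23), with closely matching LD-PM2.5 replicates.

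The remaining acute phase genes past the threshold were Serpina3n (0.89 ± 0.24), Itih4 (0.67 ± 0.20), Crp (0.44 ± 0.14), Orm3 (1.31 ± 0.42), Steap4 (0.75 ± 0.27) and Saa4 (0.78 ± 0.33). Steap4, a metalloreductase, differed from the others in that the unexposed livers, at 40.4 and 34.1 FPKM, were below LL-FA, at 46.5 and 68.9 FPKM, while LD-PM2.5 had 106 and 98.9 FPKM. The fibrinogen chains Fga (0.37 ± 0.21), Fgb (0.19 ± 0.23) and Fgg (0.21 ± 0.24) did not pass the threshold. Hamp, the iron hormone hepcidin, differed widely between the LD-PM2.5 replicates, at 608 and 3030 FPKM against 1620 and 1660 FPKM. The count of 11 was 8 to 13 when 1 library of either group was left out, with 1 gene lower when this was LD-PM2.5 replicate 2.

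LD-PM2.5 and LL-FA share the unexposed livers as a control, so the difference of each exposure from LD-FA can be set side by side but the 2 sets of values are not independent. For Cxcl1 the log2 fold change over LD-FA was 3.04 ± 0.63 for LD-PM2.5 and -1.92 ± 0.65 for LL-FA. For Icam1 it was 1.08 ± 0.31 and -0.76 ± 0.32, and for Hsph1 1.15 ± 0.43 and -1.04 ± 0.43. In these genes the unexposed livers lay between the exposed groups. For Saa1 it was -0.77 ± 0.80 and -5.62 ± 0.98, for Hspa1b 0.38 ± 0.47 and -3.00 ± 0.52, and for Dnajb1 -0.04 ± 0.18 and -1.09 ± 0.19. In the latter genes LL-FA was low and LD-PM2.5 was near the unexposed livers. Mtss1 (1.46 ± 0.16 and 0.11 ± 0.16) and Akap13 (1.34 ± 0.23 and 0.01 ± 0.23) had the opposite form, with LL-FA near the unexposed livers. Without LD-FA replicate 1, the unexposed library with muscle and pancreatic transcripts, Cxcl1 stood at 2.97 ± 0.86 and -1.98 ± 0.77, Saa1 at -0.11 ± 0.95 and -4.95 ± 0.98, and Hspa1b at 0.74 ± 0.58 and -2.64 ± 0.56.

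**Figure D3:**
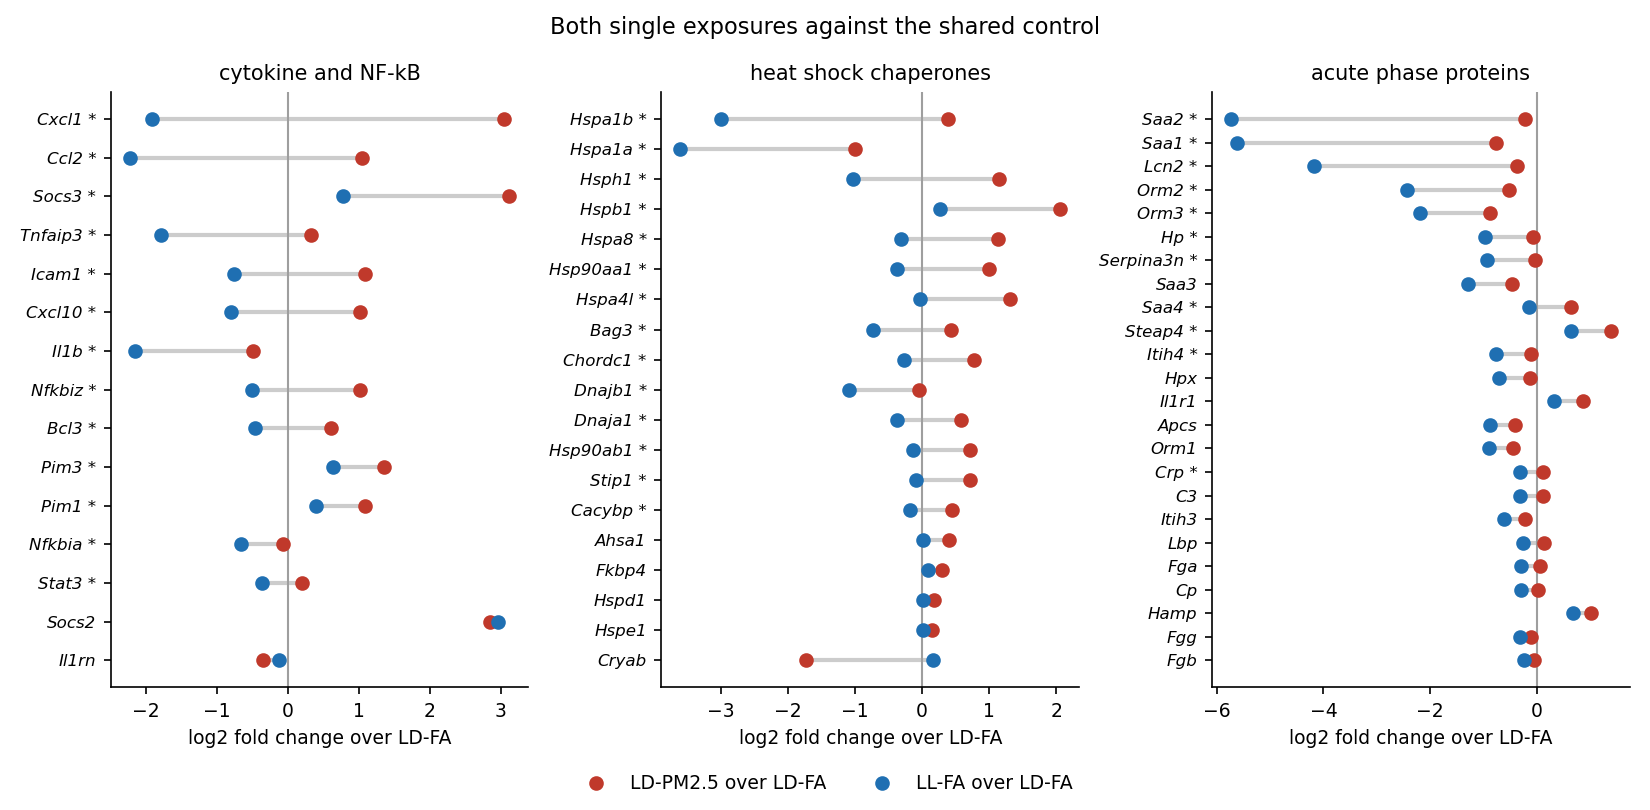
Log2 fold change of LD-PM2.5 (red) and of LL-FA (blue) over the shared unexposed group LD-FA for every tested member of 3 lists, with the distance between the points equal to the difference between the exposures. Stars mark genes past the unadjusted threshold between LD-PM2.5 and LL-FA. For Saa1, Saa2 and Lcn2 the blue points lie far to the left, at -5.62, -5.73 and -4.17, while for Cxcl1 the points lie on both sides of 0.

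The position of the groups outside the contrast was summarised over all genes past the threshold, with LL-FA at 0 and LD-PM2.5 at 1 and a division at 0.5, a description chosen after the values were seen. Of the 614 genes higher in LD-PM2.5, 359 (58.5%) had LD-PM2.5 apart from the other 3 groups. A further 129 (21%) separated the PM2.5 groups from the filtered air groups, 71 (11.6%) separated the light regimes, and in 55 (8.96%) LL-FA stood apart. Acute phase genes followed the light regime in 8 of 11 cases. Of the 13 cytokine genes, LD-PM2.5 stood apart in 8, the light regimes separated in 3 and LL-FA stood apart in 2. Of the 14 chaperones the corresponding numbers were 9, 4 and 0, and 1 followed the air. Of the 11 genes of the unfolded protein and integrated stress list, LD-PM2.5 stood apart in 3 and LL-FA in 4. In that list 3 followed the air and 1 the light regime. Of the 417 genes lower in LD-PM2.5, 213 (51.1%) had LD-PM2.5 apart and 143 (34.3%) were divided by air. The 10 skeletal muscle markers are counted among the 143, although their sum in LL-FA replicate 2, 0.76 FPKM, lay within the 0.58 to 1.68 FPKM of the PM2.5 libraries and the high libraries were LL-FA replicate 1 and both of LD-FA.

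Glucose handling and insulin response genes included 4 of 18 past the threshold, all higher in LD-PM2.5, with a median of 0.31. Irs2, the adaptor of the insulin receptor that fasting raises, measured 4.34 and 4.05 FPKM against 0.852 and 1.38 FPKM (1.88 ± 0.32). Pck1, the enzyme that commits carbon to gluconeogenesis, measured 992 and 1030 FPKM against 412 and 531 FPKM (1.07 ± 0.23). Igfbp1, a binding protein of insulin-like growth factors that insulin represses, measured 18.5 and 13.9 FPKM against 2.37 and 3.23 FPKM (2.49 ± 0.82). LL-FA held the lowest values of all groups for Irs2 and Igfbp1, since the unexposed livers had 2.44 and 2.67 FPKM of Irs2 and 28.6 and 11.3 FPKM of Igfbp1. Irs1 was also past the threshold (0.43 ± 0.15). G6pc, the last enzyme of glucose release, was at 0.87 ± 0.42 and did not pass. The median of the list was 0.03 without LD-PM2.5 replicate 2, and 2 genes were past the threshold without LL-FA replicate 2.

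Fatty acid oxidation and PPARa target genes leaned the other way, with 6 of 28 past the threshold as lower in LD-PM2.5, 1 as higher and a median of -0.18. The omega-hydroxylases Cyp4a14 and Cyp4a10, classical targets of the nuclear receptor PPARa, differed by -2.47 ± 0.93 and -1.66 ± 0.66. Cyp4a14 measured 32.1 and 19.9 FPKM against 162 and 118 FPKM, and the unexposed livers, at 3.49 and 33.8 FPKM, were as low as LD-PM2.5. Smaller differences were found for the thiolase Acaa1b (-0.68 ± 0.25) and the dehydrogenase Acadm (-0.37 ± 0.15). The lipid droplet gene Cidec measured 6.61 and 3.94 FPKM against 17.6 and 7.45 FPKM (-1.29 ± 0.50). Its 17.6 FPKM was in LL-FA replicate 1, which also held 6.94 FPKM of the fat cell hormone Adipoq, against 0.026 FPKM in replicate 2. The part of fat cells in the Cidec difference was not tested. Angptl4, a secreted inhibitor of lipoprotein lipase and also a PPARa target, was the exception at 58.6 and 38.5 FPKM against 19.1 and 18.5 FPKM (1.35 ± 0.31). Ppara itself was at 0.94 ± 0.48. The count of 6 lower genes was 1 without LL-FA replicate 1 and 2 without LD-PM2.5 replicate 2 or without LL-FA replicate 2.

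Retinoic acid genes were lower in LD-PM2.5 for 3 of 10 members and higher for 0, with 9 of 10 differences negative and a median of -0.32. Beside Cyp26a1 and Dhrs3 these included Rarb, a retinoic acid receptor that is itself a target of the acid, at 0.955 and 0.895 FPKM against 1.72 and 1.78 FPKM (-0.94 ± 0.22). Cyp26a1, Dhrs3 and Rarb are all genes that retinoic acid induces, but they did not share a pattern over the other groups. Dhrs3 measured 102 and 105 FPKM in the unexposed livers and 73.1 and 71.8 FPKM with both exposures. In LD-PM2.5 it measured 73.3 and 76.3 FPKM and in LL-FA 92.4 and 114 FPKM. Rarb measured 1.39 and 1.07 FPKM in the unexposed livers and 1.71 and 1.11 FPKM with both exposures. The median of the list lay between -0.54 and -0.22 when a library of either compared group was left out. Lrat, which esterifies retinol for storage in stellate cells and was listed among stellate cell markers, measured 3.66 and 2.03 FPKM against 5.53 and 4.50 FPKM (-0.88 ± 0.29). Among stellate cell and fibrosis markers as a whole, 1 of 9 was higher and 1 lower.

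For several clock genes the LD-PM2.5 replicates differed from each other more than from LL-FA. Per2, a repressor of the clock, measured 1.85 FPKM in replicate 1 and 9.33 FPKM in replicate 2, against 1.23 and 1.08 FPKM in LL-FA (2.23 ± 0.70). Per1 measured 1.70 and 5.99 FPKM against 1.53 and 1.21 FPKM (1.40 ± 0.54). The repressor Cry1 measured 2.85 and 15.1 FPKM against 5.09 and 3.50 FPKM. Nr1d1, which encodes REV-ERB alpha and peaks earlier in the day than Per2, had the opposite order of replicates, at 52.5 and 5.55 FPKM against 15.1 and 12.2 FPKM. Of 12 genes driven by E-box elements 2 were past the threshold, Per1 and Per2, and the median was 0.94. Without LD-PM2.5 replicate 1 the count was 9 higher and 1 lower, and without replicate 2 it was 1 and 1 with a median of -0.07.

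Some rhythmic genes separated the groups with LD-PM2.5 replicates that lay closer together. Non-overlap was not particular to them. In 4 of 12 E-box genes, Per1 and Per2 among them, both LD-PM2.5 libraries were also above LL-FA, against 18.4% of all tested genes. Nfil3, a repressor whose rhythm is opposite to that of Dbp, measured 20.9 and 26.7 FPKM against 12.0 and 12.6 FPKM (0.95 ± 0.17). Arntl, the gene of the activator BMAL1, measured 4.40 and 4.0 FPKM against 6.10 and 4.88 FPKM (-0.38 ± 0.14). Dbp, an output regulator, measured 9.12 and 13 FPKM against 3.86 and 9.08 FPKM (0.78 ± 0.37) and did not pass. Livers with both exposures had far more Dbp than either group, 32.9 and 54.0 FPKM, and less Arntl, 2.09 and 2.04 FPKM. Cdkn1a, a cell cycle inhibitor whose liver transcript is rhythmic, measured 3.83 and 2.61 FPKM against 5.04 and 4.52 FPKM (-0.67 ± 0.24). In all, 1 of 7 genes of opposite phase was higher and 1 lower, and 2 of 13 rhythmic outputs were higher, Rgs16 and Mtss1, and 1 lower. These counts also turned on the LD-PM2.5 replicates. Without replicate 1, 9 of 13 rhythmic outputs and 3 of 7 genes of opposite phase were higher, and without replicate 2 the median of the rhythmic outputs was -0.3, with 2 higher and 2 lower.

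**Figure D4:**
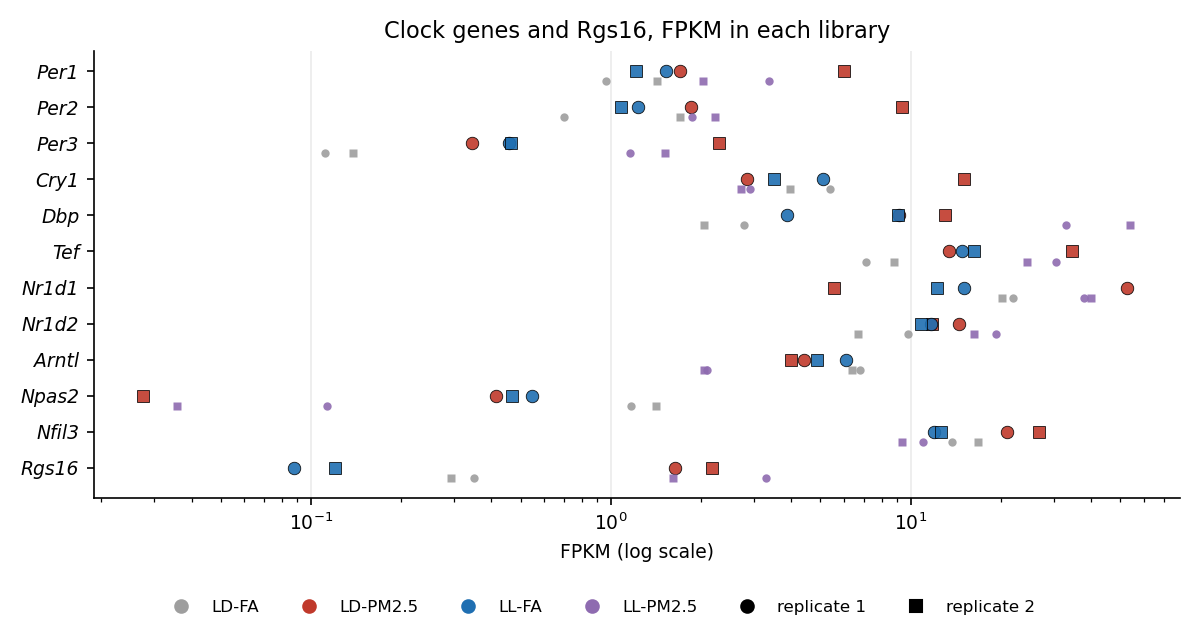
Levels of 11 clock genes and of Rgs16 in each library, in FPKM on a log axis, with large outlined symbols for the 2 groups compared and small symbols for the other 2 groups. Circles are replicate 1 and squares replicate 2. The LD-PM2.5 circle and square lie far apart for Per2, Cry1, Nr1d1 and Npas2. Both lie on 1 side of the LL-FA symbols for Nfil3 and Rgs16, and also for Per1, Per2, Dbp, Nr1d2, Arntl and Npas2.

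Cholesterol synthesis showed a similar dependence on the LD-PM2.5 replicates. Of 24 genes, 23 had negative differences and the median was -0.42, but 1 was past the threshold, 4.17% of the list against 3.69% of all genes. Hmgcs1, an early enzyme of the pathway, measured 206 and 26.2 FPKM against 227 and 134 FPKM, and Sqle, the enzyme that makes squalene epoxide, 59.7 and 11.5 FPKM against 40.8 and 29.7 FPKM. Replicate 2 of LD-PM2.5 was the low library for both. Without replicate 1 of LD-PM2.5, 15 genes were past the threshold as lower and the median was -1.09, whereas without replicate 2 it was -0.01 and 0 genes were lower.

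Fatty acid and triglyceride synthesis had 3 of 20 genes past the threshold, all higher in LD-PM2.5, with a median of -0.08. They were the elongase Elovl6 (0.85 ± 0.27), the acetyl-CoA carboxylase Acaca (0.53 ± 0.20) and the phosphatidate phosphatase Lpin2 (0.44 ± 0.17). The count of 3 higher genes was 0 without LD-PM2.5 replicate 2, where 2 were lower. It was also 0 when LL-FA replicate 2 was left out, and 1 when this was LL-FA replicate 1. Among bile acid and sterol export genes, 1 of 15 was lower and 1 higher. Cyp8b1, the enzyme that makes the cholic acid branch of bile acids, measured 152 and 131 FPKM against 225 and 301 FPKM (-0.93 ± 0.24), and the livers with both exposures, at 162 and 99.9 FPKM, were at the LD-PM2.5 level. Abcg5, a sterol exporter, measured 17.8 and 29.7 FPKM against 15.3 and 14.9 FPKM (0.62 ± 0.26). In this list 0 genes were higher without LD-PM2.5 replicate 2 or without either LL-FA library, and 2 were lower without LD-PM2.5 replicate 1.

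Genes of the response to foreign chemicals, which particles can carry, gave few differences. The aryl hydrocarbon receptor targets Cyp1a1, Cyp1b1 and Ahrr were below the filter in every library, Cyp1a1 at 0.155 and 0.276 FPKM in LD-PM2.5 and at 0.376 and 0.532 FPKM in LL-FA. Of the 6 tested members, 1 was past the threshold, the receptor's partner Arnt at 7.70 and 11.1 FPKM against 6.90 and 5.69 FPKM (0.48 ± 0.20). Cyp1a2, another target, stood at 283 and 356 FPKM against 307 and 328 FPKM. Of 16 tested genes of the NRF2 antioxidant response 0 were past the unadjusted threshold (edgeR; DESeq2 called 0 as well), with a median of -0.13. The nearest was Hmox1, heme oxygenase, at 15.2 and 26.2 FPKM against 9.70 and 13.1 FPKM (0.81 ± 0.39). Of 14 P450 genes, among which Cyp26a1 had also been listed, that gene alone was past the threshold.

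In the urea cycle and amino acid breakdown, 3 of 18 genes were lower and 0 higher. Beside Csad these were Hal, which opens histidine breakdown, at 63.7 and 49.7 FPKM against 86.6 and 76.2 FPKM (-0.56 ± 0.14), and Cth, which makes cysteine from cystathionine (-0.41 ± 0.16). Among interferon response genes 2 of 17 were higher, the transcription factors Irf9 (0.40 ± 0.13) and Irf7 (0.52 ± 0.18). Among immediate early genes 2 of 13 were higher, Atf3 and Junb, and Junb measured 37.8 and 82.1 FPKM against 7.72 and 14.2 FPKM (2.43 ± 0.49). Growth arrest genes had 2 of 10 higher, Ccnd1 (0.88 ± 0.34) and Gadd45b (1.06 ± 0.45), and 1 lower, Cdkn1a. The interferon count was 1 when any one of the 4 compared libraries was left out. The immediate early count was 1 when LD-PM2.5 replicate 2 or LL-FA replicate 2 was left out, and the growth arrest count was 1 when either LL-FA library or LD-PM2.5 replicate 2 was left out. No member was past the unadjusted threshold among 9 genes of the growth hormone axis, 5 major urinary proteins, 20 nuclear-encoded genes of oxidative phosphorylation and 19 histone and DNA modifiers, and DESeq2 called 0 in each. All 20 differences in oxidative phosphorylation were negative, between -0.30 and -0.05, with a median of -0.19.

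Markers of other cells differed most for tissues beside the liver. All 10 skeletal muscle markers were past the threshold as lower in LD-PM2.5, with a median of -10.34. Without LL-FA replicate 1, 0 of the 10 were past it and the median was 0.39. The 9 tested pancreatic markers were all at positive differences with a median of 6.85, and 0 were past the threshold. All 3 tested adipocyte markers were at negative differences with a median of -0.95, and 1 was past the threshold. Without LL-FA replicate 1 their median was 0.26. Of 8 markers of sinusoidal endothelium 1 was higher, Lyve1 (1.34 ± 0.56), of 3 tested B and plasma cell markers 1 was higher, Ighm (0.55 ± 0.21), and of 4 markers of class II antigen presentation 0 were past the threshold. Of 8 T and NK cell markers, 7 were below 1 FPKM in all 4 libraries. Hemoglobin transcripts were lower in LD-PM2.5 in 1 of 5 tested erythroid markers, Hba-a1 at 4.81 and 5.92 FPKM against 9.76 and 10.5 FPKM (-0.94 ± 0.31), and the unexposed livers had 23.6 and 12.7 FPKM. Its near copy Hba-a2 (-0.86 ± 0.39) did not pass. Car3, listed as an adipocyte marker but abundant in liver, measured 2430 and 1590 FPKM against 4170 and 3030 FPKM (-0.85 ± 0.25). The fat cell hormone Adipoq was at 6.94 FPKM in LL-FA replicate 1, the library with muscle transcripts, and at 0.898 FPKM or less in the other 3.

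**Figure D5:**
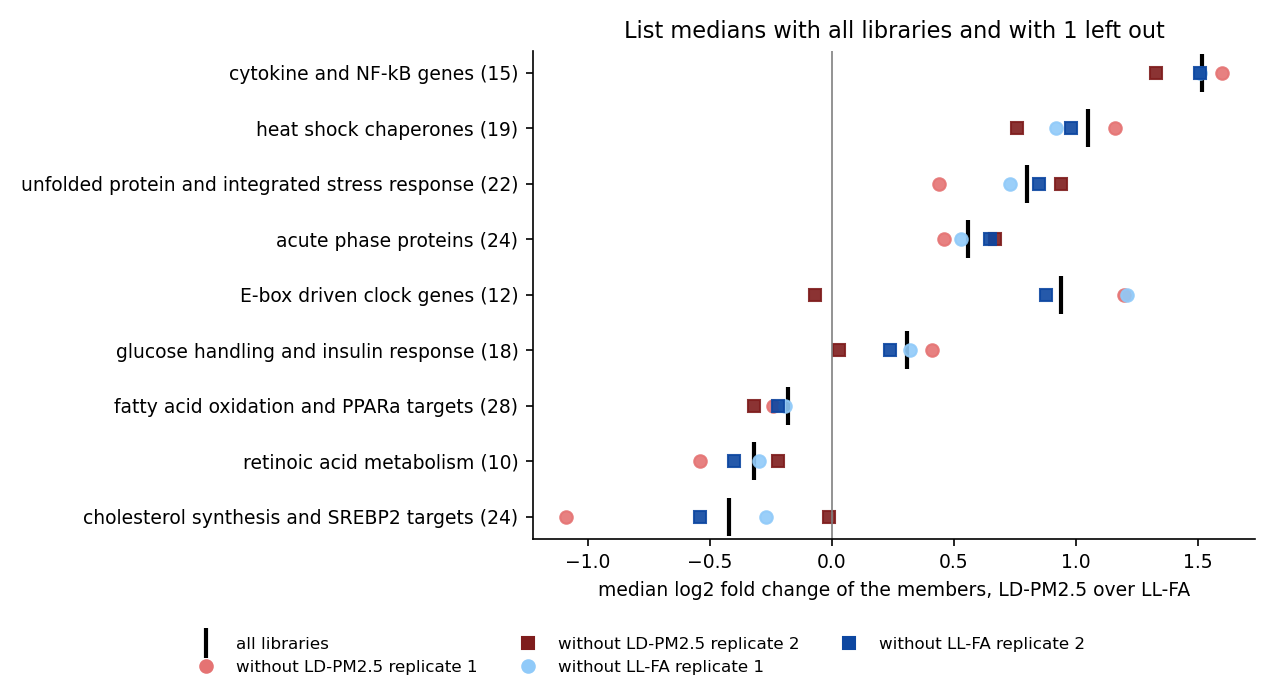
Median log2 fold change of the members of 9 lists, LD-PM2.5 over LL-FA, with all libraries (black bar) and with 1 of the 4 compared libraries left out (coloured symbols), and the number of tested members in brackets. The medians of the 4 stress and immune lists stay above 0 with any library left out. The E-box clock list and the cholesterol list reach -0.07 and -0.01 without LD-PM2.5 replicate 2.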

How the data were processed

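The 8 mouse liver RNA-seq libraries, in 4 groups of 2, were used, and ATAC-seq was left out. Alignment and quantification tools listed in the submitters' processing notes are STAR, Cufflinks and Cuffdiff, with build mm10, and their versions and options are not stated there. Per the file headers, the authors deposited for each gene and library the fragments, an expected or estimated count, and FPKM scaled by the authors to length and depth. Fragments were rounded to whole numbers, from which 97.4% of non-zero values differed by less than 0.01. The 47 genes with a status other than OK in any library, with 1.07% of fragments, were left out, among them Alb. Of 48385 identifiers, 48005 matched a GENCODE vM21 symbol (GRCm38/mm10), and entries sharing a symbol were summed.

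Genes reaching 1 FPKM in 2 or more libraries were tested with edgeR 4.0.16 (R 4.3.3, TMM scaling, quasi-likelihood test) in a single model of 4 group means with 4 residual degrees of freedom. The prior degrees of freedom were 3.46, the biological coefficient of variation 21.4% and the median SE 0.187. The SE was taken as the size of the log2 fold change over the root of its F statistic. P-values were adjusted over 11316 genes by Benjamini-Hochberg, with a threshold of 0.05. The pipeline was tested on simulated data. Library totals were 22214720 to 31819109 fragments. limma 3.58.1, DESeq2 1.42.0 and matplotlib 3.10.9 were also used.

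Named were the 10 genes a direction of smallest p with groups not overlapping and a mean of 5 FPKM or more in one of them, all tested clock genes (some are not reported here, nor are some members of other lists) and, for each other list, the 4 or fewer tested members with the lowest p (37 lists in all), plus members named as chosen after the values were seen. The genes compared and the lists were chosen with earlier results of these data known. Alternatives planned were median-of-ratios scaling, DESeq2, limma on log2 FPKM with a pseudocount of 1 or 0.1, no filter, a filter at 5 FPKM, a fit of the 4 libraries alone, a robust prior, a replicate block and leaving out each library. Leaving out LD-PM2.5 replicate 1 together with LL-FA replicate 1 was added after seeing the data, as were differences from LD-FA without LD-FA replicate 1.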

Additional observations from a re-analysis of the deposited data

How the results depend on the processing

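All counts here are of LD-PM2.5 against LL-FA, and the cause of a difference between settings was not tested unless it is named. Against 0 genes called at an adjusted p under 0.05 by edgeR, DESeq2 called 137, and edgeR with no filter on low genes called 629 of 23030 tested (312 higher and 317 lower, 441 of them among the genes of the filtered test). A fit of the 4 compared libraries alone called 1, Hspa1b. Leaving out 1 library gave 0 to 4, the 4 being Cxcl1, Hspa1b, Hsph1 and Rgs16 without either LL-PM2.5 library. Genes at an unadjusted p under 0.05 numbered 1031, of which 59.6% were higher. They numbered 536 and 543 with limma on log2 FPKM with a pseudocount of 1 or 0.1 (67.7% higher with 1), 2087 with no filter, and 591 at a filter of 5 FPKM, where fewer genes (6903) were tested. Leaving out libraries gave 527 (LL-FA replicate 2) to 1303 (LD-PM2.5 replicate 1), and 626 for LD-PM2.5 replicate 2. The higher share was then 45.5% for LL-FA replicate 2 and 49% for LD-PM2.5 replicate 1.

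Of 119 genes given with a fold change, 114 kept their direction under every setting that tested them, and 5 did not when libraries were left out. Their ranges were -3.22 to 1.65 for Socs2, -1.2 to 0.25 for Il1rn, -0.19 to 0.51 for Hspe1, -0.09 to 0.37 for Fgb and -0.12 to 0.42 for Fgg. Of 13 list medians, 10 kept their sign. The E-box clock genes ranged from -0.07 to 1.36, the Kupffer cell markers from -0.12 to 0.41, and fatty acid and triglyceride synthesis from -0.11 to 0.18, with 0.02 for limma at a pseudocount of 0.1. Without LD-FA replicate 1, small differences from LD-FA changed sign for Dnajb1 in LD-PM2.5 (0.06) and for Mtss1 (-0.01) and Akap13 (-0.23) in LL-FA.

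A fit with the replicate number as a block called 0 genes and listed 901 at an unadjusted p under 0.05. Deviations of same-numbered libraries correlated at 0.0115 between LD-PM2.5 and LL-FA and at -0.585 to 0.334 between other groups. The labels give the numbers no meaning, so libraries were taken to share only a number. At the median SE of 0.187, with 2 libraries a group, small differences and low genes are poorly resolved.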

Other observations

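Genes outside the lists that were past the unadjusted threshold of the edgeR test are given here as values, chosen after they were seen. Several encode transcription factors of the immune response. Irf1, an interferon-induced regulator, measured 19.5 and 27.4 FPKM in LD-PM2.5 and 11.2 and 10.6 FPKM in LL-FA, with a log2 difference of 1.08 ± 0.20. Relb and Nfkb2, the subunits of the alternative NF-kB pathway, differed by 1.82 ± 0.33 and 1.28 ± 0.24, while Rela, the main subunit of the classical pathway, was at 0.18 ± 0.10 and did not pass. Relb was low in absolute level, at 1.66 and 3.0 FPKM against 0.641 and 0.614 FPKM. Fosl2, an AP-1 subunit, was at 2.75 and 3.59 FPKM against 1.41 and 1.51 FPKM. Vcam1, a partner of Icam1 in leukocyte adhesion, measured 4.62 and 7.98 FPKM against 2.38 and 2.36 FPKM, and Tlr2, a receptor of bacterial lipoproteins, measured 1.93 FPKM in both LD-PM2.5 libraries against 0.721 and 1.03 FPKM. For Irf1, Relb, Nfkb2 and Fosl2 both the unexposed livers and those with both exposures lay nearer to LL-FA than to LD-PM2.5.

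Other genes concerned transport, hormone action and RNA handling. Slc39a14, a zinc and iron importer of hepatocytes, measured 46.2 and 44.4 FPKM in LD-PM2.5 against 27.2 and 24.4 FPKM in LL-FA. P4ha1, a collagen prolyl hydroxylase that low oxygen induces, measured 7.23 and 12.0 FPKM against 3.35 and 2.73 FPKM. Fkbp5, a glucocorticoid-induced cochaperone, measured 6.99 and 17.9 FPKM against 4.57 and 4.03 FPKM, with the remaining 4 libraries between 3.25 and 4.94 FPKM. On the lower side stood Nmnat3, a mitochondrial enzyme of NAD synthesis, at 2.00 and 1.82 FPKM against 3.78 and 3.35 FPKM. The lipid-storage receptor gene Pparg measured 5.41 and 4.82 FPKM against 9.10 and 10.9 FPKM, and the splicing factor gene Srsf5 10.3 and 5.93 FPKM against 21.0 and 17.6 FPKM. Elovl3, an elongase with a daily rhythm in liver, measured 329 and 123 FPKM against 485 and 454 FPKM, and the livers with both exposures, at 212 and 131 FPKM, were as low as LD-PM2.5.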
